A study of Eptesicus fuscus and Canis lupus familiaris and Equus caballus with 4 samples.

Results

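The miR-200 family and miR-205 are microRNAs, short RNAs that are cut from hairpin transcripts and lower the output of mRNAs they pair with. The hairpin candidates described here are the rows of the bat list that lie on contig ALEH01094382.1, which holds miR-200b, or on contig ALEH01064477.1, which holds miR-205. There were 5 of them among 762 bat candidates, 4 on the miR-200b contig and 1 on the miR-205 contig, and among 1453 candidates in the 3 lists analysed. The rows were taken by contig name, and the contigs were chosen with earlier results of these data known. Small RNA of adult testis from the big brown bat Eptesicus fuscus, the horse and the dog was read as 50 bp single-end sequences. No treatment or genotype is named for any animal. The series has 4 libraries, of which 1 per species was analysed. A second bat individual is labelled, and its library was not analysed here. With 1 library per species there is no spread between animals, and no test was run. All intervals are exact 95% intervals for counting error only, and they take the counts as independent. Reads amplified by PCR are not independent molecules, so the intervals of reads may be too narrow.

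A microRNA finds its targets mainly through its seed, bases 2 to 8 from the 5′ end. In mammals the miR-200 family has a cluster of miR-200b, miR-200a and miR-429 and a second one of miR-200c and miR-141. By seed it falls into one group with miR-200b, miR-200c and miR-429 and another with miR-200a and miR-141. The family is abundant in epithelial cells, where it holds down ZEB1 and ZEB2, repressors of the cell adhesion gene for E-cadherin. MiR-205 is made from a separate locus, is known from stratified and glandular epithelia and also acts on ZEB1 and ZEB2. In the testis, epithelium lines the seminiferous tubules and the rete and ducts that drain them.

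The deposited mature sequences are shown first, because they decide which family member each candidate is. They are written 5′ to 3′ as DNA letters, with bases 2 to 8 in capitals. The list gives no miRNA names, so the names rest on the known sequences of vertebrate miRNAs. The first 5 are the candidates of the 2 contigs, and the last 2, Candidate_581 and Candidate_582, lie on another contig and are the other listed rows that share bases 2 to 8 with one of them.
Candidate_321, miR-200b-3p: tAATACTGcctggtaatgatgacg
Candidate_322, miR-200a-3p: tAACACTGtctggtaacgatgttc
Candidate_323, miR-200a-5p: cATCTTACcggacagtgctggat
Candidate_324, miR-429-3p: cTAATACTgtctggtaatgccgt
Candidate_789, miR-205-5p: tCCTTCATtccaccggagtctgt
Candidate_581, miR-200c-3p: tAATACTGccgggtaatgatgga
Candidate_582, miR-141-3p: tAACACTGtctggtaaagatggc

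The miR-200b contig thus held 3 hairpins of the miR-200b, miR-200a and miR-429 cluster, with both arms of miR-200a listed. Candidate_322 belongs to the seed group of miR-200a and miR-141, and the sequence beyond the seed tells these apart. Against Candidate_582 it was identical at 20 of 22 bases, with the differences C17A and T22G, counted from 1 at the 5′ end and written with the base of Candidate_322 first. Candidate_322 carries the miR-200a sequence at these places and sits between miR-200b and miR-429, whereas Candidate_582 lies beside miR-200c. The names were set beside the gene order that RefSeq gives for assembly DD_ASM_mEF_20220401 of the same species. That assembly is not known to be the build of these contigs. Genes were looked up by symbol, so this is not a test of the sequences, and miR-205, alone on its contig, has no order to compare. There MIR200B, MIR200A and MIR429 follow each other directly in that order, flanked by C9H1orf159 and the tubulin glycylase gene TTLL10. MIR141 and MIR200C are also direct neighbours, and the gene on the far side of MIR200C is PTPN6. MIR205 has long noncoding RNA genes as its nearest neighbours on both sides.

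The hairpins show where each mature sequence sits, in capitals. That of Candidate_322 has both listed arms in capitals, the 5p arm being Candidate_323. Candidate_321 spans ALEH01094382.1, 6045 to 6137, on the plus strand, and Candidate_322 spans 6581 to 6723 of it. Candidate_324 spans 7783 to 7913, also on the plus strand, and Candidate_789 spans ALEH01064477.1, 46416 to 46526, on the minus strand. No annotation of these contigs was used, so exon, intron or UTR is not stated.
Candidate_321, miR-200b: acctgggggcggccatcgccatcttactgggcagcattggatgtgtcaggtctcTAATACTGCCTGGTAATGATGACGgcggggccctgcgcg
Candidate_322, miR-200a: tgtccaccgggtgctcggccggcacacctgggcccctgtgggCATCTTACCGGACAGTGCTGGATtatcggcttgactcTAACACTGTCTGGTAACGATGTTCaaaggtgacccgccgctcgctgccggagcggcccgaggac
Candidate_324, miR-429: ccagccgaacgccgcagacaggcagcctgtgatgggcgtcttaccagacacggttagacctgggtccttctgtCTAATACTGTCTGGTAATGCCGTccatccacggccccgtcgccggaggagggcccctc
Candidate_789, miR-205: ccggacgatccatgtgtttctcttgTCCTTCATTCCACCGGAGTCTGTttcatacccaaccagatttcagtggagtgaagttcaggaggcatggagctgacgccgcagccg

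MiR-200a-3p was the most read of the candidates and miR-429-3p the least read of the miR-200b, miR-200a and miR-429 3p arms. Candidate_322, miR-200a-3p, had 388 reads (350 to 429). Candidate_321, miR-200b-3p, had 117 reads (96.8 to 140), and Candidate_789, miR-205-5p, had 67 reads (51.9 to 85.1). These 3 intervals did not overlap, but they take each read as an independent molecule, which reads amplified by PCR are not. The intervals of their distinct reads, given below, did overlap. Distinct reads count identical molecules once, so that overlap cannot decide the order by reads. Whether the order miR-200a-3p, miR-200b-3p, miR-205-5p exceeds counting error of molecules was not tested. Candidate_324, miR-429-3p, had 9 reads (4.12 to 17.1), and Candidate_323, the 5p arm of miR-200a, had 6 reads (2.20 to 13.1). Those last intervals overlapped widely, and both lay below those of the other 3. Reads are summed per candidate and not divided by length, and the 5 listed mature sequences were 23 or 24 bases long.

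**Figure D1:**
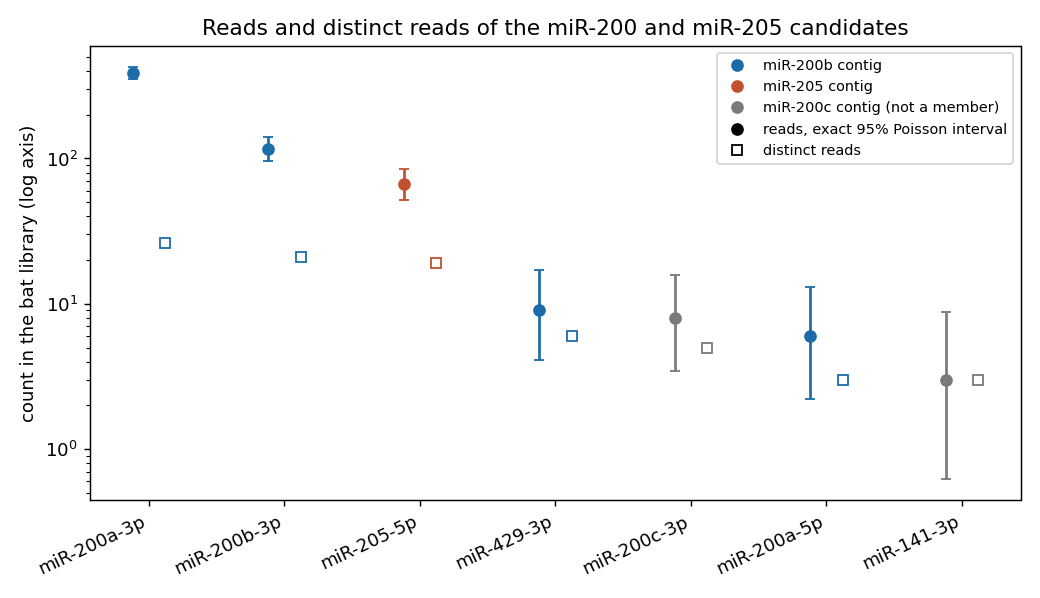
Reads (filled circles, with exact 95% Poisson intervals) and distinct reads (open squares) of the 7 candidates in the bat library, on a log axis, ordered by reads and coloured by contig. MiR-200a-3p stands highest at 388 reads, and the candidates from miR-429-3p rightward have 9 reads or fewer with overlapping intervals.

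The 5 candidates summed to 587 reads (540 to 636), of which the miR-200b contig gave 520 and the miR-205 contig 67. That was 0.659% of the 89091 listed bat reads (0.607 to 0.714). With each identical mature sequence of the list counted once the share was 0.749%, and without the most-read candidate of the list it was 0.737%. From the deposited fractions, which are rounded to 3 decimals, all reads in the authors' analysis numbered between 98889 and 99340, of which the 5 candidates made up 0.591 to 0.594%. The deposited fraction itself was 0.004 for miR-200a-3p, 0.001 for miR-200b-3p and for miR-205-5p, and 0.000 for the other two. In a whole-testis library, a lower count from fewer cells of a type cannot be told apart from less of the RNA per cell.

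By rank the 3 main arms lay in the upper part of the list. MiR-200a-3p ranked 44 of 762, between Candidate_554 with 408 reads and Candidate_347 with 386. MiR-200b-3p ranked 106, between Candidate_760 with 119 reads and 2 candidates with 107, of which the first listed is Candidate_449. MiR-205-5p ranked 124, between Candidate_812 with 68 reads and Candidate_700 with 66. The low arms were tied with others. There were 10 candidates with the 9 reads of miR-429-3p and 18 with the 6 reads of miR-200a-5p. The next counts up and down were 10 reads at 7 candidates and 8 reads at 12 for the first, and 7 reads at 13 candidates and 5 reads at 24 for the second. The median of the whole list was 3 reads, which all 5 candidates exceeded. On the family's other contig miR-200c-3p had 8 reads and ranked 266, and miR-141-3p had 3 reads, equal to the median.

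**Figure D2:**
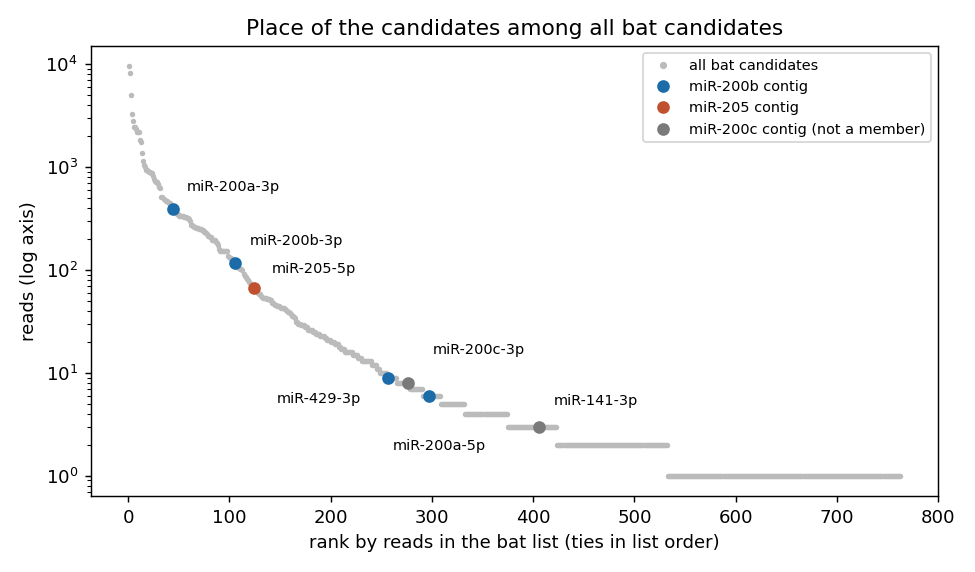
Reads on a log axis against rank by reads for all 762 bat candidates (small gray points), with the miR-200 and miR-205 candidates in colour. MiR-200a-3p, miR-200b-3p and miR-205-5p lie at ranks 44, 106 and 124, and miR-429-3p and miR-200a-5p lie where many candidates share a count.

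The arms of one hairpin and the hairpins of one cluster were read very unequally. A microRNA hairpin is cut to a duplex of both arms, of which usually one is kept. Of the 394 reads listed for the miR-200a hairpin, 388 were listed for the 3p candidate. That was 98.5% (96.7 to 99.4) if no read was counted under both arms, which is not known. Of the 505 reads of miR-200a-3p and miR-200b-3p, 388 were miR-200a-3p, which was 76.8% (72.9 to 80.4), a ratio of 3.32. MiR-200b-3p in turn took 117 of the 126 reads it shared with miR-429-3p, which was 92.9% (86.9 to 96.7). Of the 514 reads of the 3 3p arms, miR-429-3p took 1.75% (0.804 to 3.30). Whether library preparation or mapping favoured some of these sequences was not tested.

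In distinct reads, that is different read sequences at a candidate, the main arms were much closer to each other. MiR-200a-3p had 26 distinct reads, miR-200b-3p had 21 and miR-205-5p had 19. Their exact intervals overlapped, at 17.0 to 38.1, 13.0 to 32.1 and 11.4 to 29.7. These intervals take distinct sequences as independent draws, which was not tested. Identical molecules count once in distinct reads, so these are not counts of molecules. MiR-200a-3p thus made up 55.3% (40.1 to 69.8) of the distinct reads of the miR-200a and miR-200b pair, against 76.8% of their reads. Bat candidates within a factor of 2 of the reads of these 3 arms had medians of 37, 22.5 and 17 distinct reads. Those medians also lay closer to each other than the reads, so the closeness is not particular to these arms. MiR-429-3p had 6 distinct reads and miR-200a-5p had 3. Each distinct sequence was read 14.9 times on average for miR-200a-3p, 5.57 times for miR-200b-3p and 3.53 times for miR-205-5p. The averages were 2 for miR-200a-5p and 1.5 for miR-429-3p.

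Set beside bat candidates within a factor of 2 of their reads, the main arms had ordinary numbers of distinct reads except miR-200a-3p, which was toward the low side. The 61 candidates within a factor of 2 of miR-200a-3p had a median of 37 distinct reads, with quartiles of 26 and 50, and 10 of them had as few or fewer distinct reads per read. For miR-200b-3p the 52 such candidates had a median of 22.5 against its 21. For miR-205-5p the 66 such candidates had a median of 17 against its 19. For miR-429-3p 125 candidates had a median of 5 against its 6, and for miR-200a-5p 183 had a median of 3, which it equalled. These comparison sets include the candidate itself, and they are a description of 1 library.

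**Figure D3:**
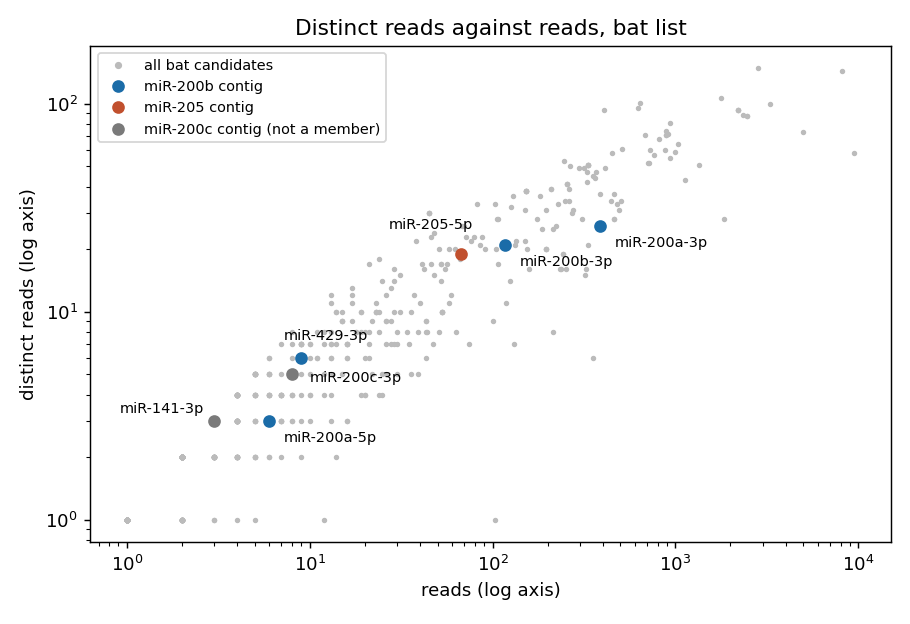
Distinct reads against reads, both on log axes, for all 762 bat candidates (small gray points), with the miR-200 and miR-205 candidates in colour. MiR-200a-3p, at 388 reads and 26 distinct reads, lies in the lower part of the cloud at its read count, while miR-200b-3p and miR-205-5p lie within its middle.

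The 3 hairpins of the miR-200b contig all lay on the plus strand within 1869 bases, in the order miR-200b, miR-200a, miR-429. From the start of the miR-200b hairpin to that of miR-200a there were 536 bases, and from there to the start of the miR-429 hairpin 1202 bases. Measured between the starts of the mature 3p sequences, which do not depend on how much flank the hairpin includes, the steps were 561 and 1196 bases. Hairpins at 3 or more separate places were found on 15 of the 580 bat contigs with a candidate, which is 2.59%. MiR-205 was the sole candidate on its contig.

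**Figure D4:**
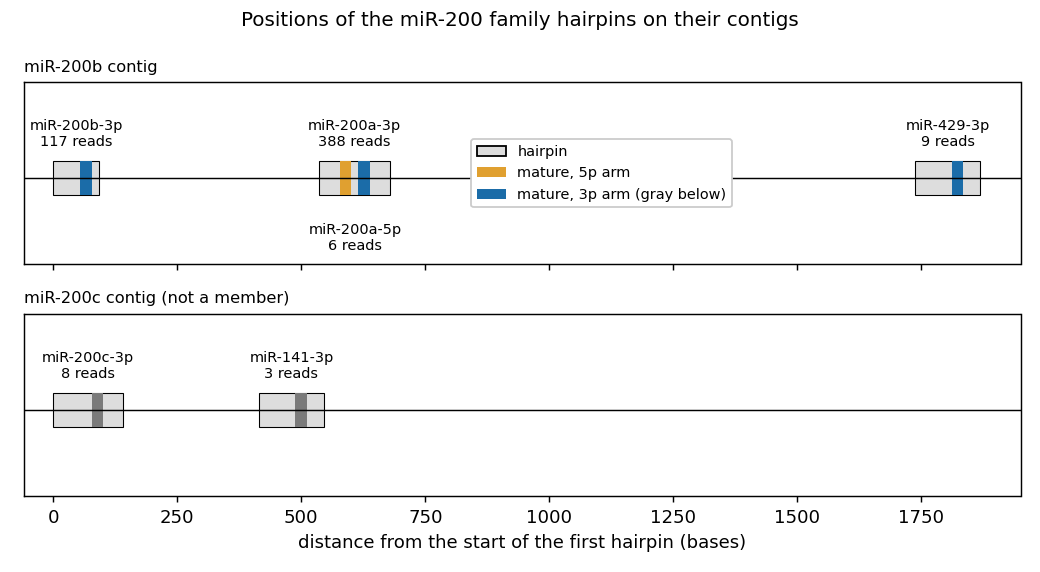
Hairpins (light boxes) and listed mature sequences (coloured boxes, 5p arm in orange) along the miR-200b contig (top) and the miR-200c contig (bottom), in bases from the start of the first hairpin. MiR-200b, miR-200a and miR-429 lie within 1869 bases on the top contig, with the wider gap before miR-429. The reads of each candidate are printed beside its mature sequence.

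Both miR-200a candidates describe 1 hairpin. Candidate_323 starts 2 bases after Candidate_322 and ends at the same base, so they share 141 bases and differ in the arm listed as mature. The 5p sequence lies at 6623 to 6645 and the 3p sequence at 6660 to 6683, with 14 bases between them. In the minimum free energy fold of the Candidate_322 hairpin, 19 base pairs join the 23 bases of the 5p arm to the 24 bases of the 3p arm. Each arm runs 3 bases at its 3′ end past the base that pairs with the other arm's first base. The sources used here do not say whether the reads of one candidate were also counted in the other.

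MiR-205-5p was the one main arm from the 5′ side of its hairpin. It lies at 46479 to 46501 of its contig, on the minus strand, 25 bases into the hairpin. MiR-200b-3p at 6099 to 6122, miR-200a-3p and miR-429-3p at 7856 to 7878 all lie on the 3′ side. Arms were read from the fold, by whether all paired bases of the mature sequence pair downstream or upstream. Over the whole bat list 340 candidates (44.6%, 41.1 to 48.2) had the 5p arm listed, 395 (51.8%, 48.2 to 55.4) the 3p arm, and 27 paired in both directions.

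The folds were of ordinary to high stability for the list. Per 100 bases of hairpin the folding energy was -50.6 kcal/mol for Candidate_322 and -49.7 for Candidate_323, below that of 79.5% and 77.4% of bat candidates. For Candidate_321, Candidate_324 and Candidate_789 it was -44.6, -44.4 and -43.2, and the median of the list was -41.4. Mature bases paired in the fold numbered 22 of 24 for miR-200a-3p and 19 of 24 for miR-200b-3p. For miR-429-3p and for miR-205-5p they were 19 of 23. GC content of the hairpins was 61.3 to 63.8% on the miR-200b contig, above the upper quartile of the list (60.5%), and 54.1% for miR-205, near its median of 55.5%. The mature 3p sequences were less GC-rich than their hairpins, at 41.7% for miR-200b-3p and for miR-200a-3p and 43.5% for miR-429-3p. All 5 prediction models of the authors' program called each candidate except miR-429-3p, which 4 models called, and over the list 51.6% of candidates had all 5.

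The listed start of miR-429-3p was displaced by 1 base from that of its relatives. Candidate_324 begins with a C before the taatactg stretch that opens Candidate_321, and in the hairpins of Candidate_321 and Candidate_322 the base just before the listed start is also C. Its bases 2 to 8 as listed are therefore TAATACT, shared as such by no other mature sequence at that place, whereas AATACTG stands at bases 3 to 9. Compared from its second base, miR-429-3p was identical to miR-200b-3p at 18 of 22 bases, with C9T, A19C, T20C and A22T. The files give 1 mature sequence per candidate and not the read starts, so how many of the 9 reads began at either base was not tested.

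The seed of the miR-200b group differed from that of the miR-200a group at 1 base. MiR-200b-3p and miR-200a-3p were identical at 18 of 22 bases, with T4C in the seed and C9T, T17C and A22T beyond it. By this seed, with miR-429-3p counted from its second base, the miR-200b group had 134 reads over 3 candidates and the miR-200a group 391 over 2. The latter was 74.5% (70.5 to 78.2) of the family's 3p reads. In distinct reads the groups were near equal, with 29 of 61 for the miR-200a group (47.5%, 34.6 to 60.7). The miR-200b group includes 6 distinct reads of miR-429-3p and 5 of miR-200c-3p, which had 9 and 8 reads. That interval takes distinct sequences as independent draws, which was not tested, and identical molecules count once in them. The 5p arm of miR-200a has a seed of its own, ATCTTAC, which no other mature sequence shared. The same letters stand in the miR-200b hairpin, in its opposite arm. The seed of miR-205-5p, CCTTCAT, was also unique among the mature sequences of the list.

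As letters anywhere in a hairpin, on the strand listed, these seeds stood in few bat hairpins, their own included. The share of hairpins with other stretches of that length was not computed, so the shares do not show that these seeds are unusual. AATACTG occurred in 7 of 762 hairpins (0.919%) and AACACTG in 4 (0.525%). CCTTCAT occurred in 4 (0.525%) and ATCTTAC in 5 (0.656%). The longest stretch common to all 5 of the family's 3p sequences was GGTAA, which 1.18% of all bat mature sequences and 10.2% of all bat hairpins held. A match of letters is a description only.

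The cluster of miR-200c and miR-141 was present but hardly read. Candidate_581, miR-200c-3p, spans ALEH01057042.1, 3541 to 3681, and Candidate_582, miR-141-3p, spans 3956 to 4086 of it, both on the plus strand and with starts 415 bases apart. MiR-200c-3p had 8 reads (3.45 to 15.8) and 5 distinct reads, and miR-141-3p had 3 reads (0.619 to 8.77) and 3 distinct reads. The miR-200b contig thus held 520 of the 531 reads of both clusters, which was 97.9% (96.3 to 99.0), and 56 of their 64 distinct reads. Paired by sequence group, miR-200b-3p took 117 of 125 reads with miR-200c-3p (93.6%, 87.8 to 97.2). MiR-200a-3p took 388 of 391 with miR-141-3p (99.2%, 97.8 to 99.8). Within the miR-200c contig itself the larger count was miR-200c-3p, 8 of 11 (72.7%, 39.0 to 94.0), an interval that includes an even split.

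The copies are similar enough that short reads could fit both. MiR-200a-3p and miR-141-3p share their first 16 bases, and miR-200b-3p and miR-200c-3p share their first 10 and differ at T11G and A22G among 22. The sources used here do not say how reads that fit more than one place were assigned, and its part in the difference between the clusters was not tested.

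No counterpart of the 5 candidates was in the horse or the dog list. None of 439 horse and 252 dog mature sequences matched any of them at 2 or fewer mismatches over 18 bases, with starts shifted by up to 2 bases, and none shared bases 2 to 8. The closest mature sequence differed at 5 bases in the horse and 6 in the dog. Searching the whole hairpins also gave 0 matches. Any removal of known miRNAs before these lists were made is not given, so this describes the lists and does not show that the horse or dog testis lacks these miRNAs.

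Of 15 miRNA names on a list of epithelial miRNAs, 6 were found on these 3 contigs, namely miR-200a, miR-200b, miR-200c, miR-141, miR-429 and miR-205. The contigs were chosen for holding these families or sharing their seeds. The count of 6 was thus fixed beforehand and says nothing about the cells in the sample. The other 9, and the lists for stroma, blood, endothelium and germ line, were not looked up, because no table of reference miRNA sequences was used. Which cells of the testis sample the reads came from was therefore not tested.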

How the data were processed

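Testis small RNA libraries of bat, horse and dog, 1 of each, were analysed, grouped by sample title. The lists hold hairpin candidates from a local installation of miRanalyzer, as the deposited column description states. Distinct reads and summed reads per candidate are deposited as raw counts. How many of the program's 5 models predicted a candidate is its deposited score. The deposited fraction is the read count over all reads in the authors' analysis. The submitters' processing notes name CanFam3.1, a dog build, for all 3 lists. The sources used here give no bat build, trimming or mapping. Listed reads summed to 89091 (bat), 61054 (horse) and 63429 (dog).

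Rows were taken by contig name. Intervals are exact, Poisson for counts and Clopper-Pearson for shares, at 95%. Hairpins were folded with RNAfold 2.7.2, and the rest was computed with Python 3.11.15, numpy 2.4.6, scipy 1.17.1 and matplotlib 3.10.9. All 762 bat mature sequences were found at their stated place in the hairpin. Mature sequences matched at 2 or fewer mismatches over 18 bases and a start shift of up to 2. 1 dog sequence was too short for this. On simulated sequences the match found 200 of 200 with up to 2 changes and 0 of 1000 random ones. The changes were ones the rule allows, so the 200 check the computation only and not whether real counterparts would be found. Every row of the 2 contigs was named, with rows sharing bases 2 to 8 and the neighbours by reads. The members and lists were chosen with earlier results of these data known. Candidate names were matched to miRNAs by known sequence, and 6 of 6 gene symbols were found in RefSeq. Other settings were identical sequences once, all 5 models, at least 10 reads, no top candidate, distinct reads, mature starts and other seed and match rules.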

Additional observations from a re-analysis of the deposited data

How the results depend on the processing

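The 587 reads of the candidates were 587 with identical mature sequences once, 578 with all 5 models and 572 with at least 10 reads, all inside the counting interval. The first of these could not differ, since no candidate shares its whole mature sequence with another row. Their share of listed reads, 0.659%, was 0.651% with at least 10 reads and 0.699% with all 5 models, inside its interval. It was 0.749% with identical sequences once and 0.737% without the most-read candidate, above it, since both shrink the total. The share of miR-200a-3p in its pair with miR-200b-3p was 55.3% in distinct reads against 76.8% in reads, and the cause was not tested. Distinct reads count identical molecules once, so 55.3% is not a share of molecules. Steps between mature starts were 561 and 1196 bases against 536 and 1202 between hairpin starts, because flanks differ in length. The 2 seed sharers were 2 under both other seed rules, and the 0 horse and dog matches were 0 under all 3 other match rules. Of these the rule of no mismatch is stricter than the main rule, so it could give only 0. The place of a candidate by distinct reads per read moved with the background in all 5: a value as low as that of miR-200a-3p or lower was found in 3.94% of all candidates, 11.8% of those with at least 10 reads and 16.4% of those within a factor of 2. No replicate could be left out. No paired analysis was possible because 1 library per species was analysed. Counts of 3 to 9 reads fix neither an order nor a ratio among the low arms.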
